A study of Mus musculus with 4 samples.

Results

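The 32 genes described here code for the proteins that bring glucose into a cell, split it to pyruvate, exchange lactate with the blood, and store or release glucose as glycogen. They were taken by gene symbol for these known roles, with earlier results of these data known, and are 32 of the 24454 genes in the count table. Of the 32 genes, 31 had enough counts to be tested among 14266 genes, and only *Eno1* did not. RNA-seq had been performed on whole hearts of C57BL/6 mice at postnatal day 7 (P7), with 2 Ctrl libraries and 2 *miR-128*OE libraries (replicates 1 and 2 of each group, in that order wherever values are listed). The *miR-128*OE mice carried α-MHC-tTA, a transactivator driven by the cardiomyocyte promoter of α-myosin heavy chain, together with *miR-128*TetRE, a responsive *miR-128* transgene that doxycycline keeps silent. The Ctrl mice carried *miR-128*TetRE without the driver, so effects of the driver and of *miR-128* cannot be told apart. The doxycycline schedule of these P7 hearts was not given in the sources used here. The study made the comparison to look for targets of *miR-128* that act in the cell cycle.

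Library totals ranged from 8096870 to 14359838 counts. The condition coincided with the sex of the mice, since *Xist* had 14543 and 11339 counts in Ctrl libraries and 94 and 132 in *miR-128*OE libraries, whereas the Y-linked gene *Ddx3y* had 13 and 7 against 1442 and 1768. Effects of sex and of the transgene therefore cannot be told apart for any gene below. The members *Pgk1* and *Pfkfb1* lie on the X chromosome, as do other genes named below, among them *Phka2* and *Alas2*. Counts on the *miR-128* host loci do not measure the mature miRNA: none fell on *Mir128-1*, and *Mir128-2* had 0, 0, 2 and 10 counts. The labels do not say whether libraries of one group came from separate animals, so p-values measure only the spread between these libraries. The 10 cardiomyocyte markers, among them *Myh6*, *Tnnt2* and *Myl2*, were all detected, with a summed level of 50308 to 54231 CPM (counts scaled to the same library total) in Ctrl and 64595 to 64793 in *miR-128*OE libraries.

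Glycolysis turns glucose into pyruvate in a fixed series of reactions, and most steps can be run by more than one enzyme form, each from its own gene. The fetal and newborn heart depends largely on glucose and lactate, works in low oxygen, and shifts towards fatty acids after birth. Muscle forms such as *Pfkm*, *Pgam2*, *Eno3* and *Pygm* become the main forms as striated muscle matures, while *Ldha* is favored in tissues that release lactate and *Ldhb* in the heart, which takes lactate up. Glycogen is laid down by glycogen synthase and broken down by glycogen phosphorylase.

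A miRNA acts mainly through its seed, bases 2 to 8, which pairs with matching sites in the 3′UTR of an mRNA and usually lowers it. The mature miR-128-3p is the same from both of its mouse genes, *Mir128-1* on chromosome 1 and *Mir128-2* on chromosome 9, and its seed is in capitals below. For each gene the longest 3′UTR among its protein-coding transcripts in GENCODE M21 (GRCm38) was searched. Matches to the seed (CACTGTG, or ACTGTGA with an A opposite base 1) stood in 8 of the 32 genes (25.0%), against 31.0% of 13463 tested genes with a 3′UTR. Of the 13 sites, 3 were matches of the longest type, which holds both forms, 1 each in *Gys1*, *Pfkfb2* and *Pgm1*. These and a site of each lactate transporter are shown because their transcripts were higher in *miR-128*OE hearts. Capitals mark the match, each site lies in the last exon, and the sequence runs 5′ to 3′ on the strand of the gene.
miR-128-3p: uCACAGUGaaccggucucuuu
Gys1 (chr7:45456314-45456321, plus strand): agtgctcagccCACTGTGAaaccactgggt
Pfkfb2 (chr1:130689974-130689981, minus strand): tgatgcatacaCACTGTGActatgaatgca
Pgm1 (chr4:99987132-99987139, plus strand): agttcctgcttCACTGTGAaagtctcccca
Slc16a1 (chr3:104657483-104657489, plus strand): tagccttaagaCACTGTGggaaccaccttg
Slc16a3 (chr11:120958432-120958438, plus strand): ccctccatcccCACTGTGgccaaggaccta

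All 8 genes with a site (*Pfkm*, *Slc16a1*, *Slc16a3*, *Pfkfb2*, *Pygb*, *Gys1*, *Gyg* and *Pgm1*) passed the test as higher in *miR-128*OE hearts, and 0 as lower. Of the 23 tested genes without a site, 19 were higher. The median log2 fold change was 0.56 with a site and 0.65 without. The 3′UTRs were longer in genes with a site, at a median of 1248 bases against 754.5. A match is a description of the sequence and does not show binding.

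Glycolysis and glycogen genes were higher in *miR-128*OE than in Ctrl hearts along nearly the whole pathway. Of the 31 genes tested, 27 (87.1%) rose and 0 fell at an adjusted p under 0.05 (quasi-likelihood test of edgeR, p-values adjusted over all genes tested after Benjamini and Hochberg). Over all 14266 genes, 16.5% were called higher and 15.0% lower. In 30 of the 31 genes both *miR-128*OE libraries lay above both Ctrl libraries, as was the case for 33.7% of all genes tested, and *Pfkfb1* had the opposite order. The median log2 fold change of the 31 genes was 0.60, against -0.01 for all genes. Their counts made up 0.836% and 0.851% of all counts in Ctrl libraries and 1.32% and 1.27% in *miR-128*OE libraries, sets of values that do not overlap. The calls of all genes depended on the scaling, since division by total counts alone moved the median of all genes to -0.11, with 1611 genes higher and 2948 lower. The median of the members was then 0.50, with 21 higher and 0 lower, and the 6 that lost their call were *Hk2*, *Pfkfb3*, *Pygb*, *Gys1*, *Gbe1* and *Pgm1*.

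**Figure D1:**
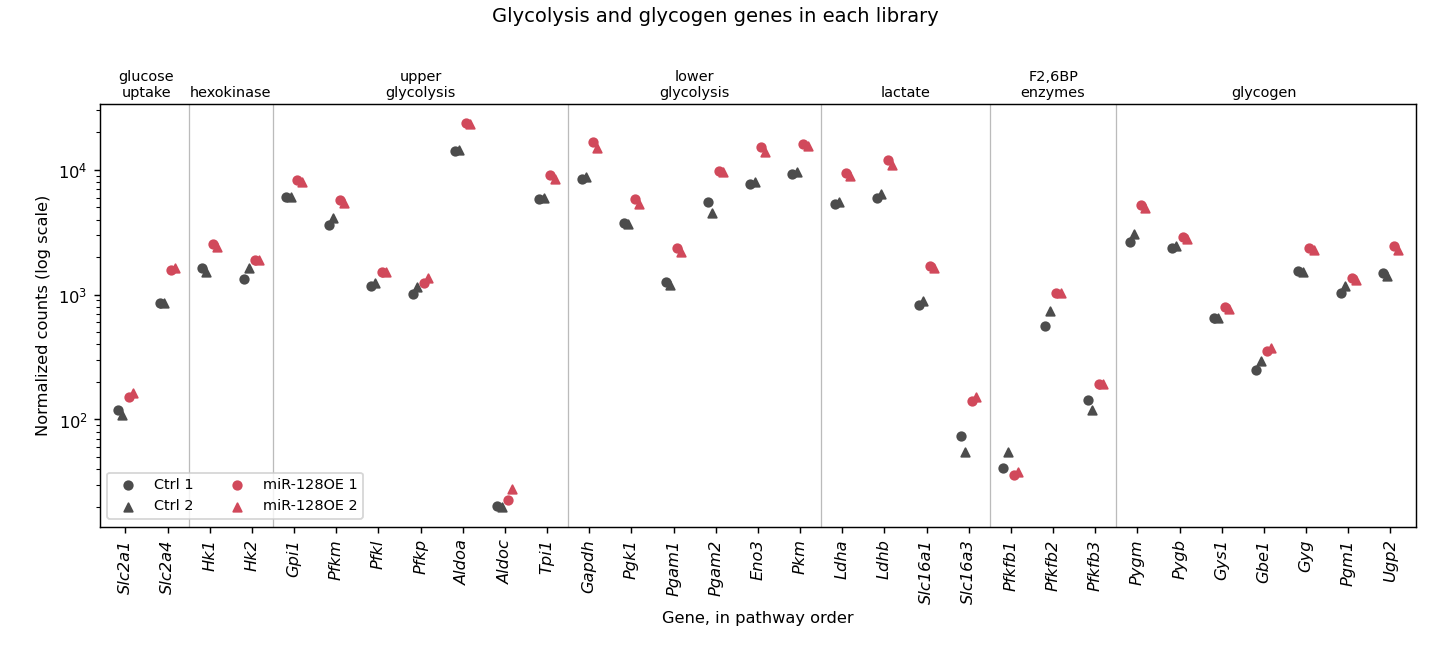
Normalized counts (log scale) of the 31 tested genes in each library, in pathway order, with circles and triangles for the libraries of each group, gray for Ctrl and red for *miR-128*OE. F2,6BP stands for fructose 2,6-bisphosphate. Red points lie above gray points for 30 genes and below them for *Pfkfb1*.

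Values below are normalized counts, that is, counts scaled to a common library size. A fold change is given on the log2 scale with its standard error (SE) and the adjusted p of the edgeR test. Genes differ in length, so levels are compared between genes only as normalized counts per kilobase of the principal transcript in GENCODE M21. On that scale *Aldoa* was the most abundant member in Ctrl hearts (9477), followed by *Gapdh* (6112), *Pgam2* (5973), *Eno3* (4991) and *Ldhb* (4728), while *Aldoc* (7.16), *Slc16a3* (14.8), *Pfkfb1* (27.7) and *Pfkfb3* (28.3) were the lowest of the tested genes. The highest genes named here were thus enzymes of the pathway itself, and the lowest were *Aldoc* and genes of regulation and transport. Between these ends the kinds were mixed, with the transporter *Slc2a4* (340) above the enzymes *Pfkl* (323) and *Hk2* (269).

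Glucose enters the cardiomyocyte through GLUT1 and the insulin-responsive GLUT4. *Slc2a4*, which codes for GLUT4 (chromosome 11, 69942286 to 69948216 of GRCm38), had 865 and 852 normalized counts in Ctrl, against 1566 and 1650 in *miR-128*OE libraries. Both *miR-128*OE libraries lay far above both Ctrl libraries, with a log2 fold change of 0.91 (SE 0.08, adjusted p = 0.000107). *Slc2a1*, which codes for GLUT1, the form that predominates in the fetal heart, had 119.8 and 109 against 152 and 164. The groups did not overlap, but its log2 fold change of 0.46 (SE 0.16) did not pass the threshold (adjusted p = 0.0545). *Slc2a1* passed under 4 alternatives, the edgeR exact test (0.0364), its likelihood ratio test (0.0332), no low-count filter (0.0335) and an offset for GC content and length (0.0469). Hexokinase traps glucose as glucose 6-phosphate. The general form *Hk1* had 1637 and 1514 against 2545 and 2403 and rose by 0.65 (SE 0.08, adjusted p = 0.000544). The insulin-responsive form *Hk2* had 1331 and 1631 against 1885 in both *miR-128*OE libraries, and its rise of 0.35 (SE 0.10, adjusted p = 0.0253) was smaller. *Hk2* varied more between the Ctrl libraries than *Hk1* did, and its call was lost when Ctrl replicate 1 or either *miR-128*OE library was left out, with adjusted p from 0.0639 to 0.129.

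In upper glycolysis the hexose is isomerized, phosphorylated again and cleaved into trioses. Of its 7 genes 5 rose, none fell, and the median log2 fold change was 0.43. *Aldoa*, the muscle aldolase (chromosome 7, 126795234 to 126800994), had 14104 and 14536 normalized counts in Ctrl, against 23684 and 23460 in *miR-128*OE libraries. This was the largest rise of the upper steps, at 0.72 (SE 0.09, adjusted p = 0.000434). *Tpi1*, which interconverts the trioses, had 5866 and 5964 against 9090.0 and 8535 (log2 fold change 0.58, adjusted p = 0.00119). *Pfkm*, the muscle form of phosphofructokinase and the committed step of glycolysis, had 3641 and 4134 against 5792 and 5418. It rose by 0.53 (SE 0.09, adjusted p = 0.00268). *Gpi1*, the glucose 6-phosphate isomerase, rose by 0.43 (adjusted p = 0.00475), and the liver form of phosphofructokinase, *Pfkl*, by 0.34 (adjusted p = 0.0114).

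These last calls rested on the number of libraries: without *miR-128*OE replicate 1 the adjusted p was 0.0868 for *Gpi1* and 0.0954 for *Pfkl*, and without *miR-128*OE replicate 2 it was 0.0894 for *Pfkl*. The platelet form *Pfkp* had 1011 and 1163 against 1250.5 and 1362 and did not pass the threshold (log2 fold change 0.27, adjusted p = 0.056). With Ctrl replicate 2 left out it did (0.37, adjusted p = 0.00618), as it did without a low-count filter (0.0158) and with the offset for GC content and length (0.00976). *Aldoc*, the aldolase known from the brain, was near the limit of the counts, at 20.1 and 19.8 against 22.8 and 27.8 normalized counts. Its log2 fold change was 0.34 with an SE of 0.35 (adjusted p = 0.492), so a difference was not detectable at this depth.

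Lower glycolysis, which yields ATP, NADH and pyruvate, rose in each of its 6 tested genes, with a median log2 fold change of 0.88. *Gapdh*, the dehydrogenase that makes NADH (chromosome 6, 125161852 to 125166467), had 8514 and 8843 normalized counts in Ctrl, against 16629.6 and 15033 in *miR-128*OE libraries. It rose by 0.87 (SE 0.09, adjusted p = 0.000234), or 1.82-fold. *Gapdh* served as the reference gene for mRNA qPCR in the study. *Pgk1*, the first ATP-yielding step, had 3754 and 3682 against 5876 and 5304 (log2 fold change 0.59, SE 0.09, adjusted p = 0.00118), the smallest rise of lower glycolysis. Both phosphoglycerate mutases rose. *Pgam2*, the muscle form (chromosome 11, 5801637 to 5803796), had 5491 and 4544 against 9805 and 9551 and rose by 0.95 (SE 0.10, adjusted p = 0.000284). *Pgam1*, the general form, had 1257 and 1189 against 2375 and 2181 and rose by 0.90 (SE 0.08, adjusted p = 0.000124).

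*Eno3*, the muscle enolase (chromosome 11, 70653125 to 70662513), had 7646 and 7967 normalized counts in Ctrl, against 15309.8 and 14018 in *miR-128*OE libraries, a rise of 0.91 (SE 0.09, adjusted p = 0.00017). *Pkm*, the pyruvate kinase of muscle and most fetal tissues, had 9228 and 9567 against 15993 and 15632 and rose by 0.75 (SE 0.08, adjusted p = 0.000327). Counts of this table do not separate its splice forms. *Eno1*, the general enolase, had raw counts of 0, 1, 0 and 1 and was not tested. Its principal transcript differs from the gene *Eno1b*, a near-identical copy named here after its values were seen, at 9 of 1652 aligned bases (99.5% identity). *Eno1b* had 71 and 46 counts in Ctrl, against 348 and 450 in *miR-128*OE libraries, a log2 fold change of 2.48 (SE 0.15, adjusted p = 1.32e-05). How reads that fit both genes were counted was not given, so the values of neither gene measure *Eno1*, and the shift from general to muscle enolase could not be described.

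**Figure D2:**
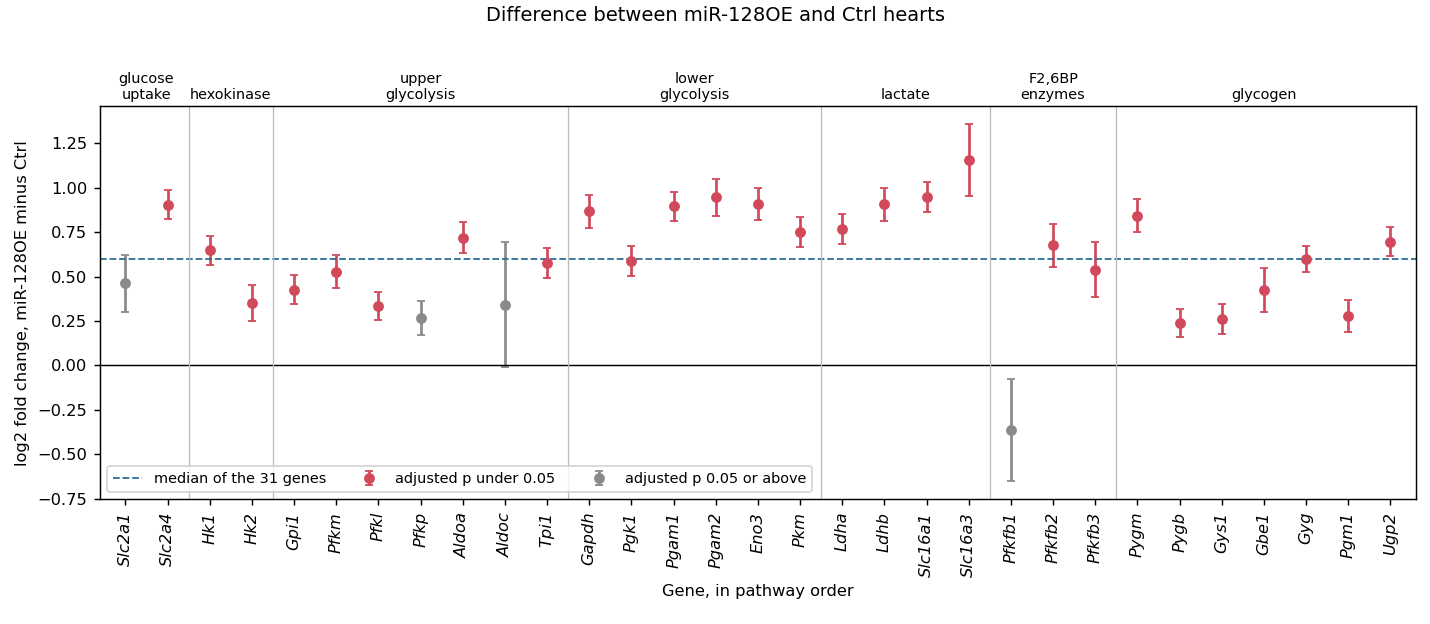
Log2 fold change (*miR-128*OE minus Ctrl) of the 31 tested genes in pathway order, with bars for the standard error. Red points passed an adjusted p of 0.05 and gray points did not. The blue dashed line marks the median of 0.60, and the genes of lower glycolysis and of lactate handling lie at or near it or above.

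Lactate dehydrogenase converts pyruvate to lactate and back, and monocarboxylate transporters carry lactate across the membrane. All 4 genes of this group rose, with a median log2 fold change of 0.93. *Slc16a3*, which codes for MCT4, the exporter of glycolytic muscle (chromosome 11, 120948484 to 120959000), had 73.2 and 55.1 normalized counts in Ctrl, against 139.6 and 151 in *miR-128*OE libraries. The log2 fold change of 1.16 (SE 0.20, adjusted p = 0.0027) was the largest of the 31 genes, at a low level. *Slc16a1*, which codes for MCT1, the main lactate importer of the heart (chromosome 3, 104638664 to 104658462), had 828 and 896 against 1690.1 and 1633. It rose by 0.95 (SE 0.08, adjusted p = 9.93e-05). *Ldhb*, the heart subunit, had 5909 and 6421 against 12088 and 11027 (log2 fold change 0.91, SE 0.09, adjusted p = 0.000205). *Ldha*, the muscle subunit, had 5304 and 5550 against 9499.9 and 8965 (0.77, SE 0.09, adjusted p = 0.000303). Subunits and transporters of both kinds thus rose together.

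The bifunctional enzymes of the Pfkfb family make and degrade fructose 2,6-bisphosphate, the strongest activator of phosphofructokinase. *Pfkfb2*, the heart form, had 564 and 745 normalized counts in Ctrl, against 1037 and 1039 in *miR-128*OE libraries, and rose by 0.68 (SE 0.12, adjusted p = 0.00302). Its Ctrl libraries lay far apart, but below both *miR-128*OE libraries. *Pfkfb3*, the inducible form, had 144 and 119 against 193 and 192 and rose by 0.54 (SE 0.16, adjusted p = 0.0271). This call was lost with Ctrl replicate 2 or either *miR-128*OE library left out, at adjusted p from 0.0623 to 0.136. *Pfkfb1*, the form of liver and skeletal muscle, was the only member with a negative value. It had 41.2 and 55.1 against 35.6 and 37.8 and a log2 fold change of -0.36 (SE 0.29, adjusted p = 0.365), so that a difference was not detectable at this depth.

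Each of the 7 genes of glycogen metabolism was called higher, but their median of 0.42 was below that of lower glycolysis. *Pygm*, the muscle glycogen phosphorylase (chromosome 19, 6384408 to 6398464), had 2657 and 3074 normalized counts in Ctrl, against 5277 and 4989 in *miR-128*OE libraries, and rose by 0.84 (SE 0.09, adjusted p = 0.000293). *Ugp2*, which makes the UDP-glucose used by glycogen synthase, had 1503 and 1415 against 2435 and 2301 and rose by 0.70 (SE 0.08, adjusted p = 0.00035). *Gyg*, the glycogenin on which a new glycogen chain starts, had 1537 and 1521 against 2351 and 2284 and rose by 0.60 (SE 0.08, adjusted p = 0.000556). For these 3 genes the distance between groups was well beyond the spread within them.

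The other 4 glycogen genes rose less. *Gbe1*, the branching enzyme, had 251 and 295 against 352 and 374 normalized counts (log2 fold change 0.42, adjusted p = 0.0283). *Pgm1*, which moves phosphate between carbons 1 and 6 of glucose, had 1039 and 1177 against 1369 and 1314 (0.28, adjusted p = 0.0388). *Gys1*, the muscle glycogen synthase, had 657 and 656 against 800.0 and 772 (0.26, adjusted p = 0.0414). *Pygb*, the brain form of phosphorylase, which is also expressed in the fetal heart, had 2387 and 2438 against 2915 and 2777 (0.24, adjusted p = 0.041). The groups did not overlap for any of them, but all 4 calls were lost with either *miR-128*OE library left out, and *Gys1*, *Gbe1* and *Pgm1* also lost theirs without Ctrl replicate 1. Adjusted p was then 0.0513 for *Gys1*, 0.0972 for *Gbe1* and 0.112 for *Pgm1*, and without a *miR-128*OE library it ranged from 0.109 to 0.281 over these 4 genes.

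**Figure D3:**
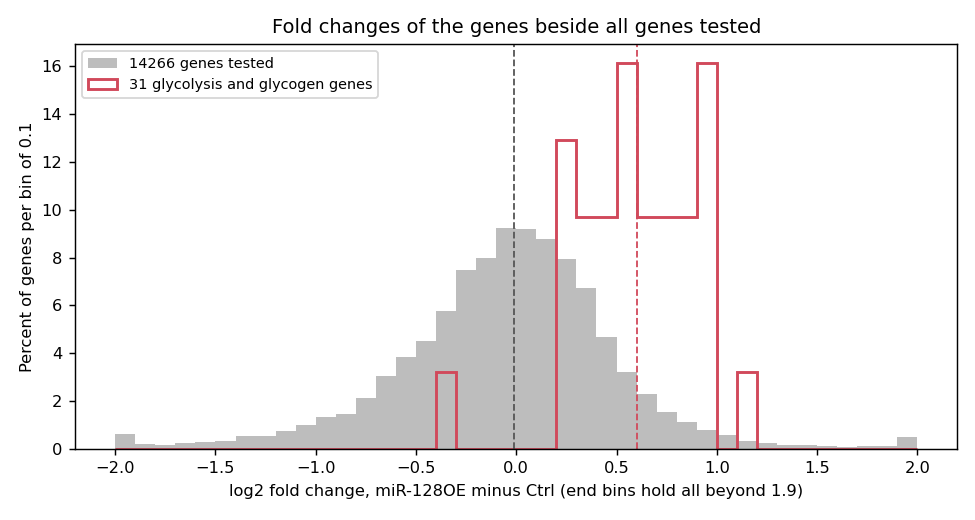
Distribution of log2 fold changes (*miR-128*OE minus Ctrl) in bins of 0.1, as percent of genes, for all 14266 genes tested (gray) and for the 31 glycolysis and glycogen genes (red outline), with dashed lines at the medians of -0.01 and 0.60. Of the 31 genes 30 lie to the right of 0.

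The balance of paired forms was measured within each library as the log2 ratio of the muscle, heart or insulin-responsive form to the other form, per kilobase, which does not depend on library scaling. Of 11 pairs 10 could be computed, and enolase could not. In 7 pairs the groups did not overlap, in 6 of these towards the muscle or heart form, and in 3 pairs they overlapped. How often other pairs of genes lie apart in this way was not computed, so these counts have no background share. The pairs are also not independent, since *Pfkm* is compared with both *Pfkp* and *Pfkl*, and the aldolase pair rests on the low counts of *Aldoc*. With 2 libraries against 2, the two-sided exact permutation test cannot go below p = 0.333, and these 7 pairs had that value (adjusted p = 0.476 over 10 pairs), so no shift could pass the test. The ratio of *Pygm* to *Pygb* moved most. *Pygm* held 60.2% and 63.2% of the summed level of both phosphorylases in Ctrl, against 71.1% and 71.0% in *miR-128*OE libraries, a log2 difference of 0.61. *Slc2a4* held 90.3% and 91.0% of the summed level with *Slc2a1* in Ctrl, against 93.0% and 92.9% in *miR-128*OE libraries (difference 0.44). *Pfkm* held 83.8% and 83.7% against 87.0% and 85.1% of its sum with *Pfkp* (0.26), and 80.2% and 81.2% against 83.3% and 82.1% of its sum with *Pfkl* (0.19).

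For lactate dehydrogenase the shift was small: *Ldhb* held 60.1% and 61.0% against 63.3% and 62.5% of the summed level with *Ldha*, a log2 difference of 0.14. *Aldoa* made up over 99.9% of the summed level with *Aldoc* in every library (log2 difference 0.39). *Hk2* went the other way, at 36.2% and 42.9% against 34.1% and 35.4% of its sum with *Hk1*, a log2 difference of -0.30, which was -0.09 without Ctrl replicate 2. The pairs *Pgam2* and *Pgam1* (0.06), *Pfkfb2* and *Pfkfb3* (0.12), and *Slc16a1* and *Slc16a3* (-0.25) overlapped between groups. Their differences changed sign without 1 Ctrl library, to -0.04 for *Pgam2* and 0.01 for *Slc16a1* without Ctrl replicate 2, and to -0.22 for *Pfkfb2* without Ctrl replicate 1.

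**Figure D4:**
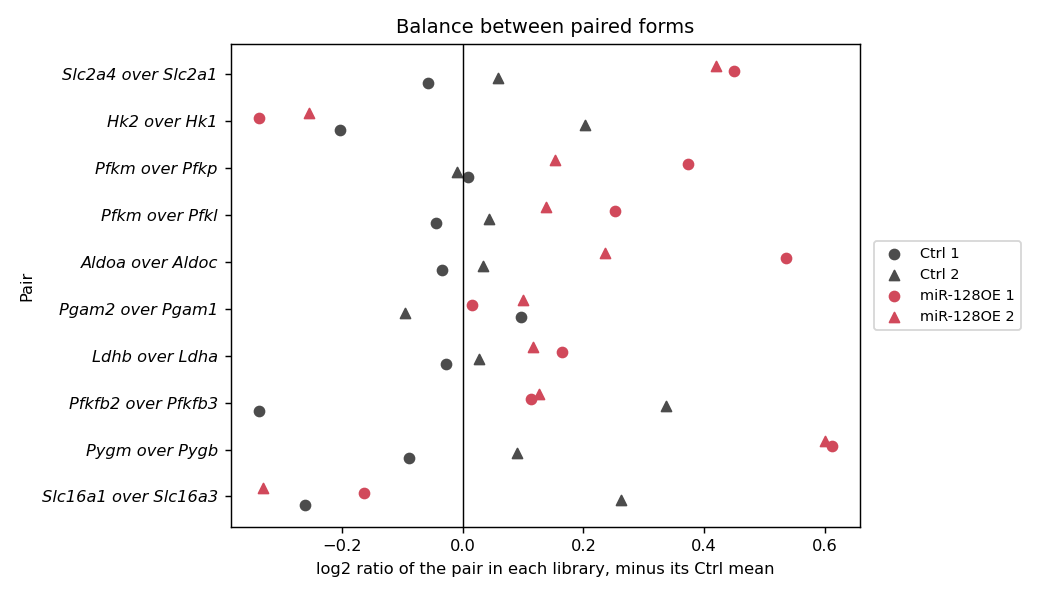
Log2 ratio of each pair in each library, minus the mean of the Ctrl libraries, for 10 pairs of forms. Gray marks are Ctrl and red marks *miR-128*OE libraries. The red marks lie to the right of both gray marks in 6 pairs, and to the left of both for *Hk2* over *Hk1*.

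Other genes of sugar metabolism were taken from lists that hold none of the members, and their counts are raw counts, which also follow the library totals, whereas fold changes are scaled. In the list of further glycolysis and monosaccharide genes, 4 of 26 tested genes rose (15.4%, against 16.5% of all genes) and 1 fell, with a median log2 fold change of 0.09. *Bpgm*, which makes the 2,3-bisphosphoglycerate of red cells, had 409 and 212 counts in Ctrl, against 598 and 632 in *miR-128*OE libraries, and rose by 0.72 (adjusted p = 0.00264). *Tigar*, a fructose 2,6-bisphosphatase, had 298 and 217 against 503 and 585 and rose by 0.78 (adjusted p = 0.000954). The fourth member of the Pfkfb family, *Pfkfb4*, had 149 and 109 against 60 and 94 and was the gene that fell, with a log2 fold change of -1.05 (adjusted p = 0.00485, and 0.0551 without *miR-128*OE replicate 1). *Fbp2*, the muscle fructose 1,6-bisphosphatase, had 185 and 147 against 190 and 181 and did not pass the test (-0.14, adjusted p = 0.565). *Eno2*, the neuronal enolase, named after its values were seen, had 51 and 24 against 90 and 105 counts and rose by 1.11 (adjusted p = 0.00905). Its adjusted p was 0.0674 without *miR-128*OE replicate 1 and 0.0549 without *miR-128*OE replicate 2.

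Among 28 tested genes of glycogen regulation and breakdown, 11 rose (39.3%, against 16.5% of all genes) and 2 fell (15.0% of all genes did). The median log2 fold change was 0.23. *Stbd1*, a protein that ties glycogen to membranes, had 152 and 56 counts in Ctrl, against 507 and 572 in *miR-128*OE libraries, and rose by 2.12 (SE 0.20, adjusted p = 0.000124). Of 6 tested targeting subunits, which bring protein phosphatase 1 to glycogen, 4 rose, *Ppp1r3a* by 0.75 (adjusted p = 0.00361), *Ppp1r3c* by 0.53 (adjusted p = 0.0025), *Ppp1r3d* by 0.43 (adjusted p = 0.0271) and *Ppp1r3b* by 0.40 (adjusted p = 0.0327). *Ppp1r3e* (-1.36, adjusted p = 0.116) and *Ppp1r3f* (-0.30, adjusted p = 0.493) did not pass the test, and the subunits other than *Ppp1r3a* and *Ppp1r3c* were named after their values were seen. *Pygl*, the liver form of phosphorylase, had 174 and 125 against 277 and 353 counts (0.77, adjusted p = 0.00256). *Phkg1*, the muscle catalytic subunit of phosphorylase kinase, had 121 and 45 against 157 and 204 (0.87, adjusted p = 0.02), a call lost with either *miR-128*OE library left out (0.0738 and 0.108). *Pgm2*, a further phosphoglucomutase, had 240 and 173 against 208 and 281 (-0.06, adjusted p = 0.773). The 2 genes that fell, named after their values were seen, were *Pgm2l1* (-0.58, adjusted p = 0.0133) and *Phka2* (-0.43, adjusted p = 0.0377). The count of higher genes in this list fell to 4 without *miR-128*OE replicate 1 and to 6 without *miR-128*OE replicate 2, and that of lower genes to 1 and 0.

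Glucose 6-phosphate can also leave glycolysis for the pentose phosphate pathway. There 3 of 12 tested genes rose (25.0%, against 16.5% of all genes) and 1 fell (15.0% of all genes did). Those that rose were *Dera* (147 and 83 against 228 and 251 counts, log2 fold change 0.78, adjusted p = 0.00434), *Taldo1* (0.48, adjusted p = 0.00477) and *Prps2* (0.34, adjusted p = 0.0333). Without *miR-128*OE replicate 1 the adjusted p was 0.0601 for *Taldo1* and 0.196 for *Prps2*, and *Prps2* also lost its call without *miR-128*OE replicate 2 (0.136) or Ctrl replicate 2 (0.0503), by the DESeq2 Wald test (0.128), with upper-quartile factors (0.0578) and with total counts (0.109). The gene that fell, *Tkt*, named after its values were seen, fell by 0.24 on the log2 scale (adjusted p = 0.0481), and the count was 0 when Ctrl replicate 2 or either *miR-128*OE library was left out. The hexosamine pathway makes the sugar for O-GlcNAc marks on proteins. In it, 2 of 9 genes rose and 2 fell (22.2% each way, against 16.5% and 15.0% of all genes). *Gfpt2*, a form of its entry enzyme, rose by 0.66 (adjusted p = 0.00393), *Gnpda1* by 0.86 (adjusted p = 0.0194, and 0.195 without *miR-128*OE replicate 1), and *Oga*, which removes the mark, fell by 0.50 (adjusted p = 0.00206). *Ogt*, which adds the mark and is named after its values were seen, fell by 0.29 (adjusted p = 0.0481). The count of lower genes was 1 when Ctrl replicate 2 or either *miR-128*OE library was left out. The shares in these branches lay below that of the members, and no test of that difference was made.

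**Figure D5:**
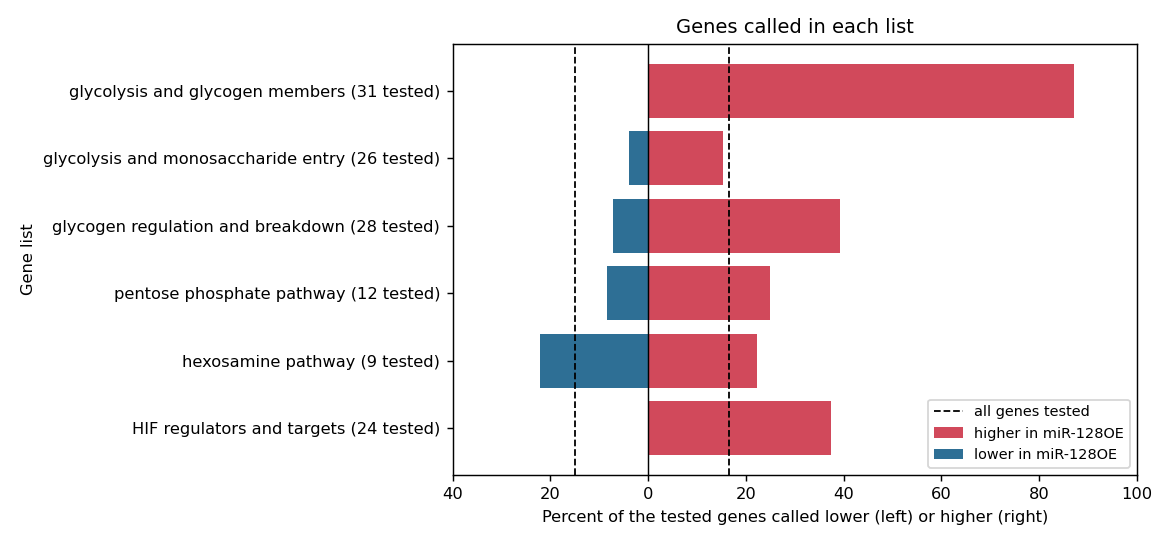
Percent of tested genes called higher (red, to the right) or lower (blue, to the left) in *miR-128*OE hearts by the edgeR test, for the glycolysis and glycogen genes and 5 lists of related genes. Dashed lines mark 16.5% higher and 15.0% lower among all genes tested, and the members stand at 87.1% higher.

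Many glycolysis genes are known targets of the hypoxia-inducible factors (HIF), which bind the core ACGTG. This core was searched on both strands in RefSeq promoters of GRCm38.p6, from 250 bases before to 50 after each start site. It stood in a promoter of 20 of the 31 members in that table (64.5%), against 28.6% of 11250 tested genes and 21.8% of all 27025 genes. Per promoter the shares were 49.0% of 49 and 24.7% of 14304. The E-box CACGTG, which contains the core on both strands, stood in 6 of 31 members (19.4%) and 11.4% of the tested genes. The half-site AAGGTCA of the estrogen-related receptors stood in 3 of 31 (9.68%) and 3.91%. Windows of 6 members of glucose uptake, lower glycolysis, lactate handling and glycogen metabolism are shown as examples, with the match at the given position in capitals, on the strand of the gene. The *Slc16a3* window ends in a further match (chr11:120949053-120949057), left in lowercase.
Slc2a1 (chr4:119108709-119108713, plus strand): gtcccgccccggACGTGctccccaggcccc
Pgk1 (chrX:106186950-106186954, plus strand): gcgtcgtgcaggACGTGacaaatggaagta
Pgam1 (chr19:41911757-41911761, plus strand): cgctccttgcttACGTGcgctccgtgactg
Ldha (chr7:46845756-46845761, plus strand, E-box): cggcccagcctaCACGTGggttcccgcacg
Slc16a3 (chr11:120949040-120949044, plus strand): caggcagcggtgACGTGcgcgggggacgtg
Ugp2 (chr11:21371432-21371436, minus strand): aagcagagacagACGTGcttggcaccgtgc

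A match to these letters does not show binding. In the list of HIF regulators and targets outside the pathway, 9 of 24 tested genes rose (37.5%) and 0 fell. Over all genes tested, 16.5% were called higher and 15.0% lower. The median log2 fold change of the list was 0.17. *Bnip3*, a mitophagy receptor, had 538 and 390 counts in Ctrl, against 1063 and 1249 in *miR-128*OE libraries, and rose by 1.02 (SE 0.09, adjusted p = 0.000107). *Egln3*, an oxygen-sensing prolyl hydroxylase, had 249 and 168 against 498 and 562 and rose by 1.06 (adjusted p = 0.000216). *Ddit4*, an inhibitor of mTORC1, had 252 and 208 against 599 and 618 and rose by 1.10 (adjusted p = 0.000508). *Hif1a*, which codes for HIF-1α, rose by 0.29 (1459 and 1134 against 1795 and 2144 counts, adjusted p = 0.0456), and this call was lost with Ctrl replicate 1 left out (0.151), with either *miR-128*OE library left out (0.174 each), with total counts (0.152) or upper-quartile factors (0.0745) as the scaling, and by the DESeq2 Wald test (0.0693). The remaining 15 genes did not pass the test.

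Several properties of the samples moved with the rise of the members. In whole hearts, more cardiomyocytes and more of an mRNA in each cardiomyocyte cannot be told apart. Of the 10 cardiomyocyte markers 5 were higher and 1 was lower (*Ryr2*), beside 16.5% higher and 15.0% lower of all genes tested. The members had 16.6 and 15.7 counts for every 100 counts of these markers in Ctrl, against 20.3 and 19.7 in *miR-128*OE libraries. That ratio depends on the markers chosen, whose log2 fold changes ranged from -0.40 to 1.34. *Myh6* alone made up 27.0% to 30.7% of their sum. Summed skeletal muscle markers were 47.1 to 60.7 CPM in Ctrl and 164 to 180.5 CPM in *miR-128*OE libraries. Of these 14 markers 6 could be tested, of which 1 was higher and 1 lower. *Myod1* had 0 counts in every library, *Myh4* had 1, 0, 4 and 4, and *Actn3* had 11, 3, 1 and 1. *Casq1*, picked out after its values were seen, had 278 and 145 counts in Ctrl, against 1889 and 1923 in *miR-128*OE libraries. It made up 37.0% and 38.1% of the summed level in Ctrl, against 84.1% and 81.5% in *miR-128*OE libraries, and without it the sums were 38.3 and 29.1 CPM against 28.6 and 30.4.

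Summed brown fat markers were 258 to 266 CPM in Ctrl and 434 to 445 CPM in *miR-128*OE libraries, with *Ucp1* at 56 and 3 against 253 and 189 counts. *Cox7a1*, which heart muscle also expresses and which was picked out after its values were seen, made up 71.2% to 76.7% of this sum, and without it the sums were 74.1 and 71.6 CPM against 116 and 101 CPM. The largest markers left, named after their values were seen, were *Ppara* (380 and 254 against 463 and 563 counts) and *Cidea* (336 and 250 against 536 and 485). How much of these counts came from brown fat was not tested. Of 7 tested brown fat markers 5 were higher and 0 were lower, beside 16.5% higher and 15.0% lower of all genes tested. Erythroid markers summed to 33.0 to 46.5 CPM in Ctrl and 69.7 to 75.0 in *miR-128*OE libraries, with 1 of 3 tested genes higher (*Alas2*, 80.5% to 89.8% of the sum). The 4 adult globin genes had 0 counts in every library, although *Alas2* had 487 and 215 against 831 and 899. How reads that fit several genes were counted was not given, so these zeros do not show that blood was absent. Smooth muscle and pericyte markers summed to 1958 to 2104 CPM against 2362 to 2714. Without *Acta2*, the largest of them, the sums overlapped, at 1452 and 1363 against 1349 and 1492 CPM, and *Myh11* was lower (-0.64, adjusted p = 0.0359), both named after their values were seen. The ranges of Ctrl and *miR-128*OE libraries overlapped for fibroblast markers (6650 to 10342 CPM against 8377 to 9257) and macrophage markers (104.9 to 138 against 103 to 104.9). Endothelial markers, whose ranges also overlapped, summed to 3201 to 3237 CPM against 3050 to 3202, and nerve and Schwann cell markers to 108 to 146 against 150.3 to 152. Thymus and lymphocyte markers stayed between 6.83 and 9.12 CPM in every library. The part of these cell types in the rise of the members was not tested.

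Many glycolysis genes have processed copies in the genome. Of the 32 genes, 12 had over 10% of the 50-base windows of their principal transcript in common with another annotated gene. That gene was not always a processed copy. *Pfkp* (17.1%) shared windows only with a gene whose span overlaps its own on chromosome 13, and *Gpi1* (25.3%) shared them with 122 genes. The share was 82.5% for *Gapdh*, 72.2% for *Eno1*, 68.0% for *Pgk1* and 41.5% for *Pgam1*. Another 12 members had no such window, among them *Slc2a4*, *Hk1*, *Pfkm*, *Pgam2*, *Eno3* and *Slc16a1*. Of these 12 genes, 10 were called higher, with a median log2 fold change of 0.62. How reads that fit several genes were treated was not given, so values of the genes with shared windows are less certain.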

How the data were processed

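RNA-seq of P7 hearts was analyzed from the raw counts per gene that the authors deposited for 4 libraries. The authors aligned reads to mm10 (GRCm38) with TopHat2 and counted them on known genes with Bioconductor packages, and the gene models, strand and rule for shared reads were not given in the sources used here. Library totals ranged from 8096870 to 14359838 counts.

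From these counts, genes were filtered by filterByExpr, scaled by TMM and compared by the quasi-likelihood test of edgeR 4.0.16 in R 4.3.3, with Benjamini-Hochberg adjustment over 14266 genes and a threshold of 0.05. The procedure was tested on simulated data. Standard errors were derived from the F statistic, as the log2 fold change over its square root. Entrez identifiers were matched to RefSeq for 24374 of 24454 genes. Alternatives included edgeR's exact and likelihood ratio tests, the Wald test of DESeq2 1.42.0, further size factors and filters, a 1.5-fold minimum, a GC and length offset (loess, span 0.5), and each library left out. Ratios, sites and motifs were computed in Python 3.11.15.

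The members and lists were chosen with earlier results of these data known. Every member is named, with the 3 called genes of smallest p in each related list and with *Pgm2*, *Phkg1*, *Ppp1r3a*, *Hif1a*, *Fbp2* and the marker and sex genes shown. Any other gene named was picked once its values had been seen, as stated there. The marker *Ahsp* could not be matched. Some genes of the related lists are counted in them but not reported here.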

Additional observations from a re-analysis of the deposited data

How the results depend on the processing

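Across 14 alternatives 0 members were lower, and between 19 and 29 of them were higher, with 1 exception: under a test against a 1.5-fold minimum, 7 were higher (*Slc2a4*, *Gapdh*, *Pgam1*, *Pgam2*, *Eno3*, *Ldhb* and *Slc16a1*), beside 249 of all genes. The DESeq2 Wald test called 22, losing *Pfkfb3*, *Pygb*, *Gys1*, *Gbe1* and *Pgm1*, and upper-quartile factors 24. Leaving out 1 library gave the members a median log2 fold change of 0.59 to 0.68, the highest without *miR-128*OE replicate 2. With either *miR-128*OE library left out, a much smaller share of all genes was called higher too. Calls of members lost in these 2 settings are therefore not particular to those genes. The median of the members was 0.55 with upper-quartile factors and 0.50 with total counts, where the median of all genes was -0.06 and -0.11. New scaling factors shift every gene by about the same amount. The difference from all genes, 0.61 in both, therefore could hardly move and is no check of the result. No tested member changed the sign of its fold change under these alternatives. Balance of pairs moved by less than the spread between replicates when 0.5 counts were added, a step that can alter well-counted pairs very little.

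In the related lists, the count of lower genes among further glycolysis genes was 3 with the exact and likelihood ratio tests, upper-quartile factors and total counts. That of the pentose phosphate pathway was 0 with the exact, likelihood ratio and DESeq2 Wald tests and DESeq2 size factors, and that of the hexosamine pathway was 1 with the DESeq2 test and DESeq2 size factors. With 1 library left out, where the lone library of a group is assumed to vary like the other group, further glycolysis genes had 2 to 6 higher and 0 to 2 lower, glycogen regulation 4 to 11 higher and 0 to 2 lower, the pentose phosphate pathway 1 to 3 higher and 0 to 1 lower, the hexosamine pathway 1 to 2 higher and 1 to 2 lower, and HIF genes 6 to 11 higher and 0 to 1 lower. The cause was not tested. No paired analysis was possible because the labels number no replicates, and the numbers used here follow accession order and only name libraries. Counts limit *Aldoc*, *Pfkfb1* and *Slc16a3* most.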
